A study of Homo sapiens with 9 samples.

Results

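The 37 genes of the human mitochondrial genome, all the rows on chromosome M among 58721 genes in the count tables, were examined in the lung carcinoma line H1299. They were taken by chromosome, with earlier results of these data known, and every one has a symbol that begins with MT-. They comprise 13 mRNAs, 2 rRNAs and 22 tRNAs. RNAs copied from the heavy strand of the DNA lie on the plus strand of the reference sequence and number 28 (12 mRNAs, both rRNAs and 14 tRNAs). RNAs copied from the light strand number 9, which are the MT-ND6 mRNA and 8 tRNAs. The 3 groups had 3 libraries each. Cells of the first group received 0.1 mM melatonin, those of the second received siCLOCK, an siRNA against the circadian transcription factor CLOCK, and the controls were held in serum free medium. The labels name no non-targeting siRNA, no duration and no vehicle, and the design text calls the samples independent without saying whether they were separate cultures. The p-values therefore measure only the spread between these libraries, which may be technical.

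Mitochondrial DNA is a small circular genome whose strands are each transcribed into long RNAs that run through many genes. Enzymes cut out the tRNAs, which lie between most of the other genes, and so release the mRNAs and rRNAs. The mRNAs encode core subunits of the respiratory chain and of ATP synthase. Some neighbouring genes stay together on a bicistronic mRNA with overlapping reading frames, as do MT-ATP8 with MT-ATP6 and MT-ND4L with MT-ND4. Light-strand transcription leaves a single mRNA, MT-ND6, and mostly yields RNA that is degraded.

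The annotated overlaps and short genes decide which fragments can be counted, so the sequences that carry this are shown here. In the count regardless of strand (column 2 of the tables), a fragment that touches more than 1 gene is ambiguous and is given to none. MT-ATP8 (GRCh38, chrM:8366-8572, plus strand, exonic, coding) has 207 bases. The last 46 of these, in capitals, are also the start of MT-ATP6 (chrM:8527-9207), which leaves 161 bases in no other gene. The final 60 bases of MT-ND4L (chrM:10470-10766, plus strand, coding) end in 7 bases, in capitals, that open MT-ND4 (chrM:10760-12137). Below them stand 3 tRNA genes, each in lower case on its own strand, which stand for the 3 ways tRNA genes behaved in the counting (counted in every column, counted only by strand, and never counted). They are in that order MT-TP (chrM:15956-16023, minus strand), MT-TS1 (chrM:7446-7514, minus strand) and MT-TK (chrM:8295-8364, plus strand), which carry proline, serine and lysine to the mitochondrial ribosome. All letters are those of the GENCODE 29 reference transcripts, not of these cells.
MT-ATP8: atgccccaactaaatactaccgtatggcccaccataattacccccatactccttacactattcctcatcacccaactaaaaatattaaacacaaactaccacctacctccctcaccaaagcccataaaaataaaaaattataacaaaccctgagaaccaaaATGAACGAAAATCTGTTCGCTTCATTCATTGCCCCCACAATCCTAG
MT-ND4L end: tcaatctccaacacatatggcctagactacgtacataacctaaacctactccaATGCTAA
MT-TP: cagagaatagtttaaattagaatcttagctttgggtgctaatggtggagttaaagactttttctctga
MT-TS1: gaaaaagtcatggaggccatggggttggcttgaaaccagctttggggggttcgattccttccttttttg
MT-TK: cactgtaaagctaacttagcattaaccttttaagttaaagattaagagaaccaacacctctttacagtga

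Gene counts per library ran from 15384539 to 19192962, of which the mitochondrial genome took 8.52% to 10.3%. The libraries fell into 2 technical sets by the share of unmapped reads. In the second set (the 3 melatonin libraries and the library labelled siCLOCK replicate 3) this share was 2.24% to 2.34%, against 1.22% to 1.36% in the first set (siCLOCK replicates 1 and 2 and the 3 controls). CLOCK stood at 40.9, 41.6 and 39.0 CPM in melatonin, at 20.9, 32.0 and 38.1 CPM in siCLOCK and at 39.0, 38.6 and 44.4 CPM in control, so the library labelled siCLOCK replicate 3 lies close to the control range for the targeted gene. The H1299 markers KRT8, KRT18 and VIM were present in every library, between 130 and 2018 CPM. The leukocyte and erythroid markers PTPRC, CD3E, LYZ, HBB and HBA1 were at or near 0, and COL1A1 and DCN (fibroblast) and PECAM1 (endothelial) stood at 0.58 to 4.08 CPM. Ambiguous reads were 9.77% to 10.1% in the second set, against 10.2% to 10.6% in the first, and processed pseudogenes took 0.314% to 0.324% of gene counts there, against 0.163% to 0.172%. Their part in the results was not tested. Unless stated otherwise, levels below are CPM (counts scaled to a common library size) adjusted with TMM factors. Log2 fold changes and their adjusted p-values come from the edgeR quasi-likelihood test over 16441 genes.

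Per kilobase of annotated gene, the cytochrome c oxidase mRNAs had the highest counts among the members in control libraries. MT-CO2 averaged 18549 CPM per kb ± 316 (SD, n = 3), MT-CO3 16954 ± 366 and MT-CO1 12334 ± 168, and their control libraries did not overlap. MT-ATP6, an ATP synthase subunit, followed at 9664 ± 869, and its control libraries overlapped those of MT-ND4, a complex I subunit, at 8017 ± 580. The complex III subunit MT-CYB (5815 ± 188) overlapped MT-ND2 (5430 ± 502), and MT-ND1 (4889 ± 143) overlapped MT-ND3 (4836 ± 380). MT-RNR2, the large ribosomal RNA, stood at 4021 CPM per kb ± 387, below most mRNAs. MT-ND5 (2660 ± 110) and MT-ND4L (2108 ± 163) were lower still, and the tRNA MT-TP stood at 1310 ± 202. The small ribosomal RNA MT-RNR1 (855 ± 135) overlapped the light-strand mRNA MT-ND6 (627 ± 180). MT-ATP8 was lowest of the counted mRNAs at 47.6 CPM per kb ± 6.42. This order is that of counted fragments, from which ambiguous fragments are left out. Whether it follows the amounts of RNA in the cells was not tested.

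In cells given melatonin, several complex I and ATP synthase mRNAs were lower than in control, and the rRNAs and the remaining mRNAs did not pass. Of the 37 members, 16 passed the low-count filter (13 mRNAs, both rRNAs and the tRNA MT-TP). Among these, 5 mRNAs fell and none rose: MT-ATP8, MT-ND6, MT-ND2, MT-ND1 and MT-ATP6. These are 31.25% of the members tested, all lower, whereas over all genes tested 12.1% were lower and 11.0% higher (23.1% in either direction). MT-ATP8 and MT-ATP6 lie on the same bicistronic RNA, so the 5 are not separate RNAs. Their counts nonetheless gave unlike log2 fold changes, -2.22 and -0.44, the first from few reads. The median log2 fold change of the 16 members was -0.19, against 0.01 over all genes. All 5 were also low in the library labelled siCLOCK replicate 3. The H1299 markers KRT8 (-0.31, adjusted p = 0.00930), KRT18 (-0.31, adjusted p = 0.0188) and VIM (-0.30, adjusted p = 0.00251) fell in melatonin as well, and none of them passed once the technical set was in the model (adjusted p = 0.611, 0.906 and 0.156). The fibroblast gene COL1A1 fell too (-0.96, adjusted p = 0.00437), whereas DCN (0.52) and PECAM1 (-0.09) did not pass. Their part in the result was not tested. In bulk RNA, fewer cells of a kind and less RNA per cell cannot be told apart.

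MT-ATP8, a small membrane subunit of ATP synthase, had 1.95, 2.17 and 2.18 CPM in melatonin, 8.11 and 10.3 CPM in siCLOCK replicates 1 and 2, 2.41 CPM in the one labelled siCLOCK replicate 3, and 11.0, 10.1 and 8.41 CPM in control. The melatonin and control libraries did not overlap, and the library labelled siCLOCK replicate 3 stood just above the melatonin range. The log2 fold change between melatonin and control was -2.22 (SE 0.33, adjusted p = 9.85e-05). These levels rest on few reads, 31 to 42 counts per melatonin library and 150 to 208 per control library. Only a fragment that lies within the 161 bases shown in lower case can be counted for this gene alone.

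MT-ND6, the complex I subunit made from the light strand, had 99.6, 138 and 110 CPM in melatonin, 297 and 427 CPM in siCLOCK replicates 1 and 2, 121 CPM in the one labelled siCLOCK replicate 3, and 438, 287 and 263 CPM in control. All libraries of the second set were below all of the first. The log2 fold change between melatonin and control was -1.50 (SE 0.28, adjusted p = 7.64e-04). MT-ND6 (chrM:14149-14673, minus strand) adjoins MT-ND5 and MT-TE with no gap, and its antisense RNA lies on the heavy-strand transcript.

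MT-ND2, a complex I subunit, had 3477, 3600.4 and 3188 CPM in melatonin, 5397 and 5794 CPM in siCLOCK replicates 1 and 2, 3581 CPM in the one labelled siCLOCK replicate 3, and 5444, 5276 and 6254 CPM in control. The fold change was -0.73 (SE 0.12, adjusted p = 2.71e-04). MT-ND1, another complex I subunit, had 2863, 3548 and 3166 CPM in melatonin, 4786 and 5309.7 CPM in siCLOCK replicates 1 and 2, 3259 CPM in the one labelled siCLOCK replicate 3, and 4762, 4517 and 4744 CPM in control. Its fold change was -0.55 (SE 0.12, adjusted p = 0.00262). For both genes the 4 libraries of the second set sat below the 5 of the first without overlap. MT-ATP6 averaged 4849.8 CPM ± 444 in melatonin and 6581 CPM ± 592 in control (SD, n = 3 each; log2 fold change -0.44, SE 0.12, adjusted p = 0.0125). Without melatonin replicate 1 its adjusted p was 0.0642, without control replicate 1 it was 0.0606, without control replicate 2 it was 0.0594, and with DESeq2 it was 0.0696.

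The other members did not pass between melatonin and control. MT-ND4 stood at -0.24 (adjusted p = 0.0558), MT-CYB at -0.22 (adjusted p = 0.0745), MT-CO2 at -0.17 (adjusted p = 0.126) and MT-ND5 at -0.18 (adjusted p = 0.170), all on the log2 scale. MT-CO1, at 20956, 19895 and 19432 CPM in melatonin against 18852, 18887 and 19317 CPM in control, was higher in every melatonin library than in every control, at a log2 fold change of 0.08 that did not pass (adjusted p = 0.361). MT-CO3 (-0.06), MT-ND3 (-0.01), MT-ND4L (0.01) and MT-RNR2 (0.02) lay closest to 0. MT-RNR1 was at 0.17 (adjusted p = 0.147). Without control replicate 1, MT-RNR1 was higher in melatonin (0.31, adjusted p = 0.00643). In all, 8 members had an unadjusted p under 0.05 by edgeR. All were mRNAs, as were 13 of the 16 members tested. The share of all genes at that level was not taken, here or in the comparisons below. Counts of members by unadjusted p therefore do not set the members apart.

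**Figure D1:**
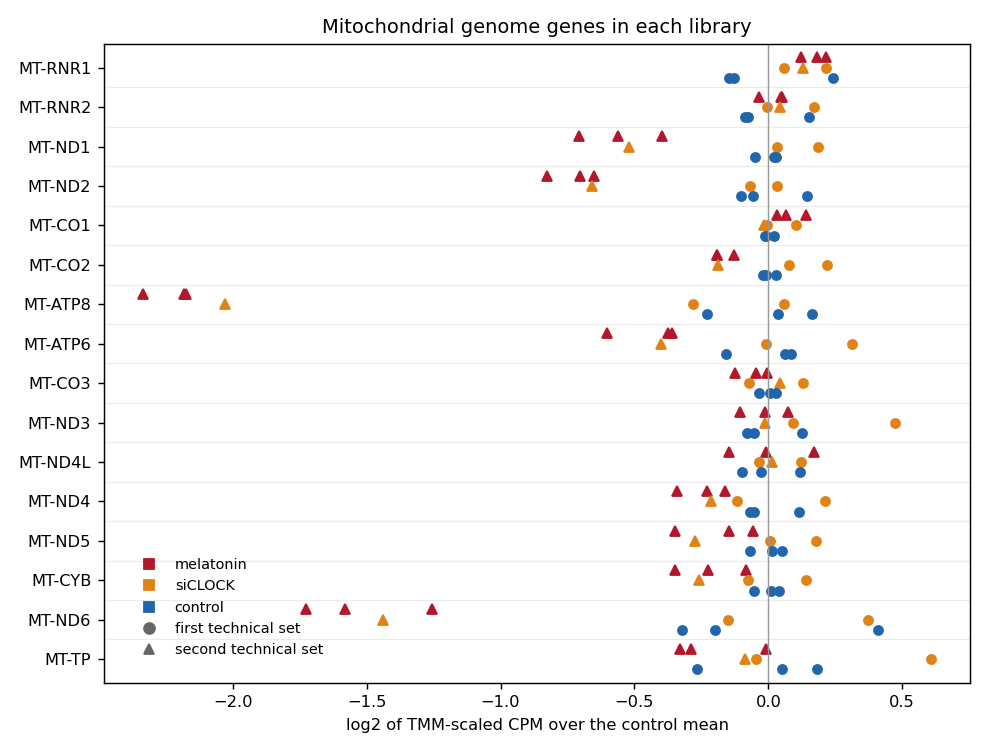
Log2 of the TMM-scaled CPM of each library over the control mean (x axis) for the 16 members that passed the filter (rows), coloured by group, with circles for the first and triangles for the second technical set. The library labelled siCLOCK replicate 3 (orange triangle) lies with the melatonin libraries for MT-ATP8, MT-ND6, MT-ND2, MT-ND1 and MT-ATP6.

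In siCLOCK against control none of the 16 members passed the edgeR test, and none had an unadjusted p under 0.05. The share of all genes called was 0.122%. DESeq2 also called 0 members. Values for all 16 members overlapped between siCLOCK and control. MT-ATP8 stood at a log2 fold change of -0.51 (SE 0.27, adjusted p = 0.671), MT-ND6 at -0.23 (adjusted p = 0.902) and MT-ND2 at -0.20 (adjusted p = 0.720). Within the first technical set, where siCLOCK replicates 1 and 2 were set against the 3 controls, these values were -0.11, 0.13 and -0.02, and again no member passed (adjusted p = 0.832, 0.824 and 0.947, against 0.617% of all genes called), with 3 at an unadjusted p under 0.05. The smallest adjusted p there was 0.161, for MT-ND3 (0.29), a complex I subunit with 1784 and 2325 CPM in siCLOCK replicates 1 and 2, against 1584, 1612 and 1824 CPM in control.

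Between melatonin and siCLOCK, the same 5 mRNAs were lower as between melatonin and control, and again none was higher. This pair of comparisons shares the melatonin libraries. Over all genes, 10.1% were lower and 7.43% higher in this comparison (17.5% in either direction). The log2 fold changes were -1.71 for MT-ATP8 (SE 0.34, adjusted p = 0.00225), -1.28 for MT-ND6 (SE 0.28, adjusted p = 0.00394), -0.53 for MT-ND2 (SE 0.12, adjusted p = 0.00540), -0.48 for MT-ND1 (SE 0.12, adjusted p = 0.00914) and -0.44 for MT-ATP6 (SE 0.12, adjusted p = 0.0176). The siCLOCK SDs were wide, for example 4.06 CPM around a mean of 6.93 CPM for MT-ATP8, since replicates 1 and 2 and the library labelled siCLOCK replicate 3 differed. Without the library labelled siCLOCK replicate 3, 11 members were lower (12.9% of all genes), MT-TP among them at -0.52 (adjusted p = 0.00716). Without melatonin replicate 1, 3 members passed, and without siCLOCK replicate 2, 4 passed. The shares of all genes called in those fits were not taken.

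The same 5 genes separated the technical sets within siCLOCK. For 8 of the 16 members, every library of the second set lay below every library of the first: MT-CO2, MT-ATP6, MT-ND4, MT-CYB, MT-ND2, MT-ND1, MT-ND6 and MT-ATP8. The library labelled siCLOCK replicate 3 lay within the melatonin range for 13 of the 16. How often genes outside chromosome M do the same was not counted, so neither count sets the members apart. A term for the technical set in the model rests on the library labelled siCLOCK replicate 3 against siCLOCK replicates 1 and 2. With it the second set was lower for 5 members and higher for none, against 0.207% lower and 0.760% higher over all genes. They were MT-ATP8 at -1.93 (SE 0.24, adjusted p = 2.32e-05), MT-ND6 at -1.58 (SE 0.23, adjusted p = 2.25e-04), MT-ND2 at -0.64 (adjusted p = 6.53e-04), MT-ND1 at -0.63 (adjusted p = 0.00102) and MT-ATP6 at -0.56 (adjusted p = 0.0222).

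In the same fit, no member passed in melatonin against control (4.68% of all genes were called) or in melatonin against siCLOCK (5.85% of all genes). At an unadjusted p under 0.05 there was 1 member in melatonin against control, MT-ND3, and 0 in melatonin against siCLOCK. Melatonin against siCLOCK is then a comparison of the 3 melatonin libraries with the library labelled siCLOCK replicate 3 alone, and it gave -0.19 (SE 0.28) for MT-ATP8, -0.06 (SE 0.21) for MT-ND6, -0.07 (SE 0.09) for MT-ND2, -0.03 (SE 0.10) for MT-ND1 and -0.04 (SE 0.11) for MT-ATP6. Melatonin against control with the set term gave -0.30 (SE 0.31) for MT-ATP8 and 0.07 (SE 0.26) for MT-ND6. This estimate also carries the difference between siCLOCK replicates 1 and 2 and the controls. All controls belonged to the first set and all melatonin libraries to the second, so the technical set and melatonin cannot be told apart from these groups. The set term has only the library labelled siCLOCK replicate 3 to rest on, whose CLOCK level was close to the controls. If its label is wrong, or it in fact received melatonin, the set term takes in the melatonin difference, and the values with that term do not separate the set from melatonin. Whether the label is right was not tested.

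**Figure D2:**
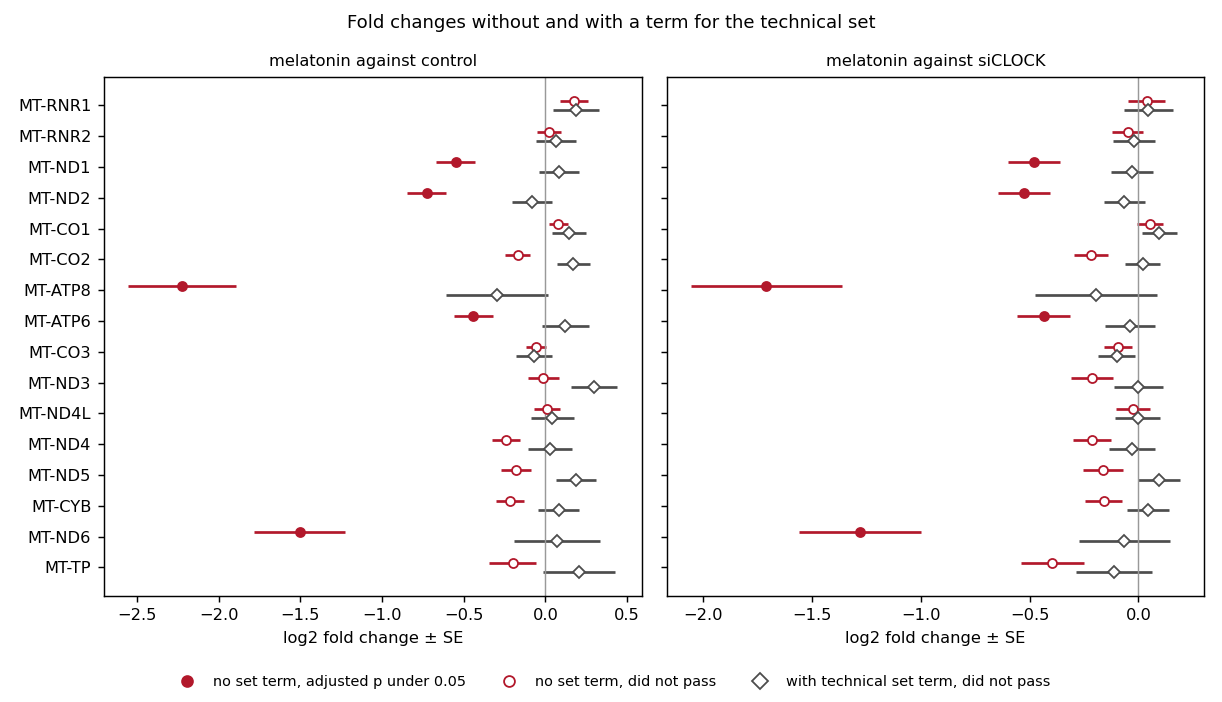
Log2 fold changes with their SE for the 16 members in melatonin against control (left) and melatonin against siCLOCK (right), from the model without (red circles) and with (grey diamonds) a term for the technical set. Filled circles passed an adjusted p of 0.05. With the set term the values of MT-ATP8 were -0.30 and -0.19, and no member passed.

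By class, mRNAs made up most of the mitochondrial counts. In melatonin libraries they took 7.81%, 8.24% and 7.79% of gene counts, in siCLOCK replicates 1 and 2 8.27% and 9.50%, in the library labelled siCLOCK replicate 3 7.77% (95% Wilson interval 7.76% to 7.79%), and in control 8.71%, 8.50% and 8.57%. The melatonin mean of 7.95% ± 0.257 was below the control mean of 8.59% ± 0.105 (SD, n = 3 each), and these libraries did not overlap (two-sided exact permutation p = 0.1, adjusted p = 0.3 over 18 such tests). With 3 libraries against 3 no p below 0.1 is possible. The rRNAs took 0.749% ± 0.0231 of gene counts in melatonin, 0.734% ± 0.0365 in siCLOCK and 0.699% ± 0.0706 in control, and these ranges overlapped (exact permutation p = 0.4 for melatonin against control). The tRNAs took 0.00797% ± 9.74e-04 in melatonin, 0.0100% ± 0.00272 in siCLOCK and 0.00880% ± 0.00131 in control (exact permutation p = 0.5 for melatonin against control). Nearly all of these tRNA counts were MT-TP, and 18 tRNAs were at 0 in every library. This share therefore does not measure the tRNAs as a class.

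By strand, the light-strand mRNA MT-ND6 was 0.132%, 0.172% and 0.145% of mitochondrial mRNA counts in melatonin. It was 0.346% and 0.436% in siCLOCK replicates 1 and 2, 0.158% (95% Wilson interval 0.152% to 0.164%) in the library labelled siCLOCK replicate 3, and 0.495%, 0.336% and 0.302% in control. The melatonin mean was 0.396 times the control mean, without overlap (exact permutation p = 0.1, adjusted p = 0.3). The siCLOCK mean of 0.313% ± 0.142 and the control mean of 0.378% ± 0.103 came from overlapping libraries (exact permutation p = 0.6). Intervals cover counting error only. These counts do not keep strand, so they can include antisense RNA from the heavy-strand transcript. The difference between melatonin and control also changed in the counts by strand, given further below.

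**Figure D3:**
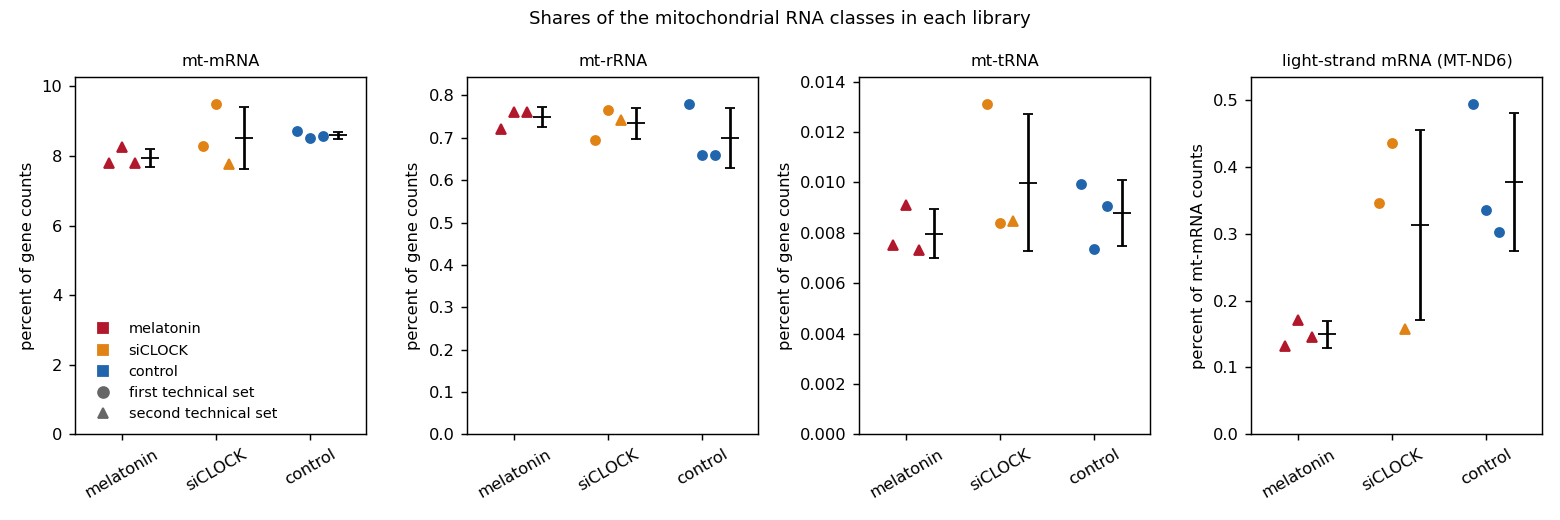
Percent of gene counts taken by mitochondrial mRNAs, rRNAs and tRNAs, and percent of mitochondrial mRNA counts that were MT-ND6, per library (points; circles first, triangles second technical set) with the mean and SD of 3 libraries (black). For MT-ND6 the 4 triangles lie between 0.132% and 0.172%, below all circles.

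The overlapping pairs differed in what was counted. Per kilobase, MT-ATP6 exceeded MT-ATP8 700-fold ± 22.9 in melatonin, 371-fold ± 222 in siCLOCK and 204-fold ± 10.9 in control (SD, n = 3 each), although the RNA is known to carry both reading frames. MT-ATP8 had 0.0451, 0.0423 and 0.0430 counts per 100 MT-ATP6 counts in melatonin, and 0.124 and 0.126 in siCLOCK replicates 1 and 2. It had 0.0485 in the library labelled siCLOCK replicate 3 and 0.158, 0.147 and 0.143 in control. Melatonin, siCLOCK and control libraries did not overlap in any pairing (exact permutation p = 0.1 for each, adjusted p = 0.3). The ratio was lowest in the 4 libraries of the second set, in which the share of ambiguous reads was also lowest. The part of the ambiguous reads in the ratio was not tested.

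MT-ND4L and MT-ND4, both complex I subunits that share only 7 bases, stood closer. MT-ND4 exceeded MT-ND4L per kilobase 3.21-fold ± 0.329 in melatonin, 3.63-fold ± 0.402 in siCLOCK and 3.80-fold ± 0.0697 in control (SD, n = 3 each). MT-ND4L had 7.12, 7.14 and 5.999 counts per 100 MT-ND4 counts in melatonin, 6.002 and 5.32 in siCLOCK replicates 1 and 2, 6.63 in the library labelled siCLOCK replicate 3, and 5.68, 5.76 and 5.56 in control. Every melatonin library was above every control (exact permutation p = 0.1, adjusted p = 0.3), whereas siCLOCK overlapped control (exact permutation p = 0.5). The MT-ND4L ratio was thus higher in melatonin than in control, whereas the MT-ATP8 ratio was lower. MT-ND4L has 290 bases in no other gene, against 161 for MT-ATP8. The cause of either difference was not tested.

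**Figure D4:**
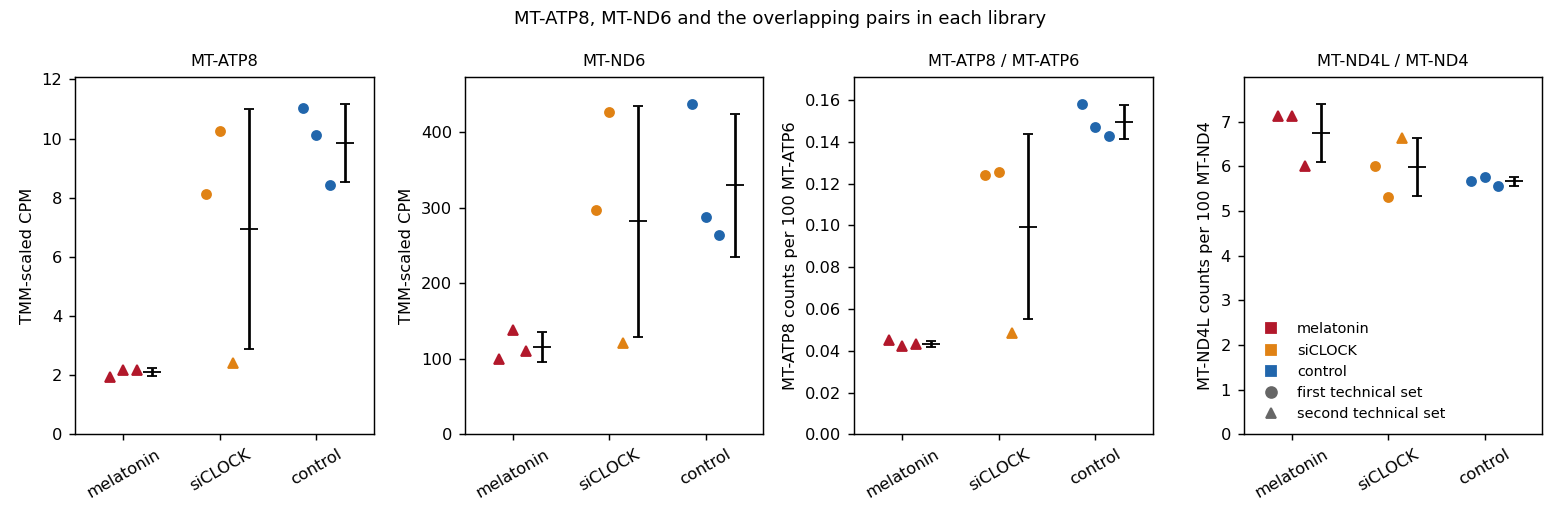
MT-ATP8 and MT-ND6 in TMM-scaled CPM, and counts of MT-ATP8 per 100 MT-ATP6 and of MT-ND4L per 100 MT-ND4, per library (points; circles first, triangles second technical set) with the mean and SD of 3 libraries (black). MT-ATP8 lies between 1.95 and 2.41 CPM in the second set and between 8.11 and 11.0 CPM in the first.

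Few tRNAs were counted at all. The tRNA genes are 59 to 75 bases long, and 20 of the 22 have a neighbour within 31 bases on both sides. In the count regardless of strand, 18 tRNAs were at 0 in all 9 libraries, MT-TK among them. A count of 0 allows up to 0.156 to 0.195 CPM, depending on the library (3 counts over the total gene counts, without TMM factors). MT-TL1, MT-TC and MT-TY had at most 5 counts in any library. MT-TP alone had more, with 1156 to 2510 counts per library. MT-TP adjoins the control region, with 546 bases after it that hold no annotated gene. MT-TF adjoins the same region, with 576 such bases before it, yet had 0 counts in every column of every library. Why MT-TP was counted was not tested. MT-TP stood at 72.9, 88.6 and 71.0 CPM in melatonin, 136, 86.2 and 83.8 CPM in siCLOCK and 101, 74.1 and 92.2 CPM in control. These ranges overlapped, and the log2 fold changes were -0.20 in melatonin against control (adjusted p = 0.344) and 0.19 in siCLOCK against control (adjusted p = 0.803).

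The strand columns (columns 3 and 4, which count fragments with read 1 on the gene's strand or on the other) gave other tRNAs large counts. MT-TS1 had 0 counts regardless of strand in every library, but 22809 to 28191 over the strand columns. It lies antisense, directly after MT-CO1, and MT-CO1 gained 32607 to 38174 counts over the strand columns relative to column 2. A fragment across that border is ambiguous in column 2, but each strand column assigns it to a single gene. MT-TY likewise had 1322 to 1870 counts over the strand columns, against at most 5 regardless of strand, and MT-TQ 355 to 783, against 0. MT-ND6 gained 937 to 5274 counts, which were 34.1% to 42.6% of its strand-column counts, and its neighbour MT-ND5 gained 882 to 5122. Of 22 tRNAs, 9 stayed at 0 in all 3 columns of every library.

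These libraries did not keep strand, since the totals of columns 3 and 4 stood in a ratio of 1.01 to 1.05, but the mitochondrial genes were uneven. Among 3842 nuclear genes with at least 1000 strand-column counts in every library, the share with read 1 on the minus strand of the reference had a median of 49.9%, with 90% of genes between 41.4% and 58.5%. Among mitochondrial genes with at least 100 such counts per library, 18 in all, the median over libraries was above 50% for every gene, for both templates. It was 63.7% for MT-ND2, 65.2% for MT-ND3 and 62.3% for MT-CO3 on the heavy-strand transcript. It was highest, at 77.9%, for the light-strand MT-ND6. That gene's share was 79.7%, 57.5% and 77.4% in melatonin, 80.1%, 70.1% and 77.9% in siCLOCK, and 90.1%, 86.5% and 75.9% in control, so the groups overlapped. MT-ATP8 was more uneven still, with 26 to 37 counts in column 4 and 5 to 9 in column 3 in melatonin, against 148 to 206 and 0 to 3 in control. Its counts were thus lower in melatonin in column 4 only. The cause was not tested.

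MT-ND6 fell in melatonin against control by 1.90 on the log2 scale in column 3 (adjusted p = 1.81e-05), while column 4 gave -0.58 (adjusted p = 0.307). In counts that do not keep strand, RNA of MT-ND6 and antisense RNA from the heavy-strand transcript cannot be told apart. MT-ND1 was at -0.35 in column 3 (adjusted p = 0.149) and fell by 0.68 in column 4 (adjusted p = 1.30e-04).

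**Figure D5:**
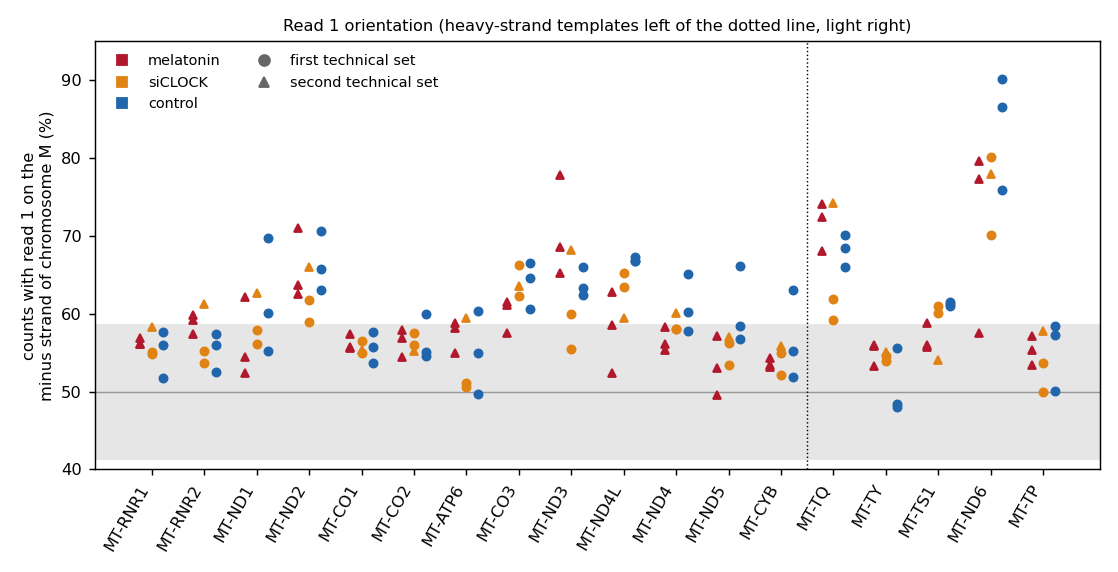
Percent of strand-column counts with read 1 on the minus strand of chromosome M (y axis, from 40 to 95) for the 18 members with at least 100 such counts per library, by group and technical set. The grey band holds 90% of 3842 nuclear genes (41.4% to 58.5%), and MT-ND6 reaches 57.5% to 90.1%.

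Near-identical copies of part of the mitochondrial genome lie side by side on chromosome 1 of GRCh38, and counts of both are uncertain where a read matches either. MTATP8P1 (chr1:633535-633741) differs from MT-ATP8 at 5 of 207 positions and had 0 counts in all 9 libraries. MTCO1P12 (chr1:631074-632616) differs from MT-CO1 at 21 positions, is 98.6% identical, and was the only nuclear copy past 5 CPM. It had 51.9, 57.3 and 61.9 CPM in melatonin, 44.5, 56.1 and 49.0 CPM in siCLOCK and 39.5, 37.3 and 39.2 CPM in control. Every melatonin and siCLOCK library was above every control, and MTCO1P12 rose in melatonin against control by a log2 fold change of 0.56 (SE 0.09, adjusted p = 1.49e-04). The value was 0.60 with the set term (adjusted p = 0.0211), whereas siCLOCK against control gave 0.37 (adjusted p = 0.133). As for the members, the estimate with the set term also carries the difference between siCLOCK replicates 1 and 2 and the controls. It therefore does not show a difference of melatonin alone. These were 1.98 to 3.19 counts per 1000 MT-CO1 counts, and reads of copies this similar cannot be fully separated. Of 7 nuclear copies that could be tested, 1 other rose in melatonin against control, where 11.0% of all genes were higher. It was MTCO3P12, a copy of part of MT-CO3 (1.33, adjusted p = 0.00989), which did not pass with the set term (0.77, adjusted p = 0.538). In melatonin against siCLOCK none of the 7 copies passed, MTCO1P12 included. The copies of MT-ND1, MT-ND2, MT-CO2, MT-ATP6 and MT-CO3 in the same tract had at most 25 counts in any library.

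Nuclear genes that serve the mitochondrial genome were taken as 3 lists. Of 18 genes of mitochondrial transcription and DNA upkeep, 6 fell and none rose in melatonin against control, with a median log2 fold change of -0.16 against 0.01 over all genes, of which 12.1% were lower. The mitochondrial RNA polymerase POLRMT fell by 0.31 (adjusted p = 0.0127) and the protease LONP1 by 0.35 (adjusted p = 0.00238). RNASEH1, which removes RNA paired with DNA, fell by 0.40 (adjusted p = 0.00387) and the DNA exonuclease MGME1 by 0.36 (adjusted p = 0.00278). The packaging factor TFAM, chosen after its value was seen, stood at -0.09 (adjusted p = 0.501). Of 31 genes of mitochondrial RNA processing and decay, 6 fell and none rose (median -0.07), beside the same 12.1% of all genes. They included ELAC2, which cuts the 3′ ends of tRNAs (-0.33, adjusted p = 0.0123), SLIRP, which stabilises mitochondrial mRNAs (-0.39, adjusted p = 0.0181), and the tRNA-modifying enzyme TRMU (-0.35, adjusted p = 0.00352). With the set term no gene of either list passed, and in siCLOCK against control none passed either. In melatonin against siCLOCK 5 genes of the first list and 3 of the second fell, where 10.1% of all genes were lower.

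Of 76 nuclear genes for respiratory chain subunits, 7 rose, 9 fell and 60 did not pass in melatonin against control (median 0.01), near the shares of all genes (11.0% higher and 12.1% lower). The complex I subunits NDUFB1 (0.39, adjusted p = 4.59e-04) and NDUFA2 (0.57, adjusted p = 0.00219) rose. The ATP synthase subunits ATP5F1B (-0.33, adjusted p = 0.00177) and ATP5F1D (-0.41, adjusted p = 0.00387) fell. With the set term 2 of the 76 were higher and none lower, at a median of 0.14, where 4.68% of all genes were called. That estimate also carries the difference between siCLOCK replicates 1 and 2 and the controls. In siCLOCK against control the set term likewise gave 2 higher and none lower (median 0.11), and the share of all genes is not given here. Without the term none of the 76 passed in siCLOCK against control. In melatonin against siCLOCK, also without it, 2 rose and 8 fell, where 7.43% of all genes were higher and 10.1% lower.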

How the data were processed

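RNA from 9 H1299 libraries was sequenced as paired reads of 150 bases, per the labels' protocols. The authors deposited raw counts per gene, made with STAR 2.7.9a on GRCh38 (hg38), per the submitters' processing notes. Each table opens with lines of unmapped, multimapping, no-feature and ambiguous reads, which were left out of library sizes and made up 1.22% to 2.34%, 3.57% to 3.83%, 5.02% to 5.89% and 9.77% to 10.6% of reads. All 58721 identifiers matched GENCODE 29, which supplied symbols, strands and coordinates and is not stated by the authors. Counts regardless of strand were tested with edgeR 4.0.16 in R 4.3.3 (filterByExpr, TMM, quasi-likelihood F test over all 9 libraries, 16441 genes, Benjamini-Hochberg, threshold 0.05), a procedure tested on simulated data. SEs were derived from the absolute log2 fold change and its F statistic. Shares and ratios were compared by exact permutation over libraries. Total gene counts ran from 15384539 to 19192962 per library.

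Named genes were all mRNAs and rRNAs, tRNAs with a mean of at least 10 counts, nuclear copies at 5 CPM or more and up to 4 genes of each nuclear list with the smallest p. Members and lists were chosen with earlier results of these data known. Alternatives were DESeq2 1.42.0, RLE scaling, scaling from genes outside chromosome M, no filter, only the libraries compared, a replicate block, each strand column, a technical set term divided at 1.8% unmapped reads, and each library left out. The MT-ND4L to MT-ND4 ratio was added after seeing the data. A marker gene is not reported here.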

Additional observations from a re-analysis of the deposited data

Results flagged for a closer look

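MT-TT, the threonine tRNA gene between MT-CYB and MT-TP, had no counts regardless of strand, but over both strand columns it averaged 1.67 CPM in siCLOCK. Its 3 libraries lay between 1.49 and 1.87 CPM there, above the controls at 1.28 to 1.45. These are 23 to 41 counts per library, and melatonin (1.07 to 1.83) overlapped control. Here CPM were taken over the total of both strand columns, without TMM factors. The difference was not tested.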

How the results depend on the processing

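The number of members past the threshold in melatonin against control was 5, and in melatonin against siCLOCK also 5. Without the low-count filter it was 10 and 11, with 1 (MT-ATP8) in siCLOCK against control. With only the 6 libraries of melatonin and control it was 11, 10 lower and 1 higher (MT-RNR1, 0.17). A member was also higher in column 3 (MT-ND4L, 0.35) and without control replicate 1 (MT-RNR1, 0.31). With the technical set term it was 0 in both melatonin comparisons. The values listed for melatonin against siCLOCK within the second set are those of this same fit. Leaving out single libraries gave 4 to 6, and 3 to 11 against siCLOCK. The share of all genes called was not taken without the filter, with only 6 libraries, or without single libraries other than siCLOCK replicate 3. Those counts therefore do not set the members apart. The replicate block gave 5 and 5, and 0 in siCLOCK against control. It changed no call, and same-numbered libraries did not deviate together (r of -0.09 to 0.06). With 3 libraries per group this cannot exclude that the numbers pair libraries. With the set term MT-ND1 (0.081), MT-ATP6 (0.12) and MT-ND6 (0.071) changed sign in melatonin against control, at adjusted p of 0.784, 0.716 and 0.923 by edgeR. The cause was not tested. Of the values of single genes under the alternatives, 124 kept direction and side of the threshold. A further 26 kept direction but no longer passed, 12 of them in the fits with the set term or within the second set, where they lay nearer 0 (MT-ATP8 at -0.30 in melatonin against control). Strand columns moved some shares, given here in percentage points. Melatonin minus control was -0.264 (column 3) and -0.845 (column 4) for mRNAs, -0.00527 (column 3) for rRNAs, 0.0178 (column 4) for tRNAs, and -0.934 (column 3) and -0.0380 (column 4) for the light-strand share. For siCLOCK minus control, tRNAs gave -0.00601 and 0.00885, and the light-strand share -0.421 and 0.0625. For melatonin minus siCLOCK, tRNAs gave 0.00424 and 0.00893, and the light-strand share -0.512 (column 3). MT-ATP8 per 100 MT-ATP6 differed by 0.0136 and -0.207 in melatonin minus control, 0.00463 and -0.0837 in siCLOCK minus control, and 0.00896 and -0.123 in melatonin minus siCLOCK. MT-ND4L per 100 MT-ND4 differed by 1.66 (column 3) in melatonin minus control. MT-ATP8 rests on few reads, with 0 to 9 counts per library in column 3.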
